A study of Mus musculus with 12 samples.

Results

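Bleomycin, a drug that injures the lung when given into the airway, was compared with PBS in mice that received only the drug vehicle, by adding up all RNA measured in the nuclei of each lung. The comparison used the 3 libraries titled Bleo_Vehicle and the 3 titled PBS_Vehicle, which are 6 of the 12 libraries of the series, with 1 library per mouse. A barcode was kept when it held 200 to 6000 genes with a unique molecular identifier (UMI, the tag of a captured RNA molecule) and at most 5% UMIs from mitochondrial genes. This kept 29934 of the 31748 barcodes of the 6 libraries, against 47319 of 49163 in the series.

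The PBS_vehicle mice were C57BL/6J animals, 7 weeks old, that received PBS into the trachea and then the vehicle (N-methyl-2-pyrrolidone with polyethylene glycol) by mouth for 5 days from day 5. The Bleo_vehicle mice differed in receiving bleomycin at 1.2 U/kg in place of PBS, and all lungs were taken on day 14. No gene was deleted in either group, and both groups received the vehicle. The other 6 mice received NVP-BHG712, an inhibitor of the receptor tyrosine kinase EphB4, in place of the vehicle, and entered the fit to set the spread and for 1 test of a difference in effect. Lungs were snap frozen, nuclei were sorted by their DNA stain, and the 3′ ends of transcripts were sequenced, so cytoplasmic RNA was largely left behind and levels of different genes are not set against each other.

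Bleomycin breaks DNA and kills alveolar epithelium, which is followed by inflammation, the arrival of monocytes that turn into macrophages, and the deposition of matrix by activated fibroblasts. Macrophages of injured lung are known for osteopontin, lipid transport proteins and lysosomal enzymes, and recovering type II cells pass through a keratin-rich transitional state on the way to type I cells. The circadian clock is a loop in which BMAL1 and CLOCK drive genes from E-boxes, while REV-ERB proteins, encoded by Nr1d1 and Nr1d2, repress genes such as Nfil3 from sites that ROR proteins also bind.

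The libraries were of unequal depth and quality. Kept UMIs numbered 23838528, 7389650 and 4954515 in PBS_vehicle replicates 1 to 3, and 4383243, 14580656 and 58973123 in Bleo_vehicle replicates 1 to 3. Mitochondrial genes made up 0.048%, 0.0728% and 0.0568% of kept UMIs in PBS_vehicle and 1.43%, 1.14% and 0.618% in Bleo_vehicle, where 843, 604 and 244 barcodes were above the 5% limit. Bleo_vehicle replicate 1 stood apart: the non-coding locus Gm26917 was at 5490 CPM (UMI counts scaled to library size) there, against 2020 and 316 in the other bleomycin libraries and 196 to 424 with PBS. PBS_vehicle libraries carry run numbers 1, 2 and 2 and Bleo_vehicle libraries batch numbers 6, 6 and 7, so batch and treatment cannot be told apart and no value within a batch could be had. No pair of the 12 libraries shared more than 32 barcodes.

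Of 14448 genes tested over the summed lung, 271 were higher with bleomycin (1.88%) and 106 were lower (0.734%) at an adjusted p under 0.05 by edgeR's quasi-likelihood test with Benjamini-Hochberg adjustment over all genes tested. The median log2 change over all genes was 0.005. The number called, 377, became 190 when Bleo_vehicle replicate 1 was left out, 108 when replicate 2 of that group was, and 1372 when its replicate 3 was. Leaving out replicate 2 of PBS_vehicle gave 38, and leaving out its replicate 3 gave 57. The 3 bleomycin values lay above all 3 PBS values for 11.2% of tested genes and below them for 9.52%. In sums over a lung, fewer cells of a type and less RNA per cell cannot be told apart, so the genes are followed into cell classes after the whole-lung values. CPM values below are per library, in the order of replicates 1 to 3, scaled by trimmed mean of M values (TMM) factors. The largest rises and falls, here and within classes, were picked among called genes without overlap between the groups. Their lack of overlap therefore follows from that rule.

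The largest rises were led by genes of macrophages and of secreted or metal-handling proteins. Arg1, the enzyme that splits arginine into ornithine and urea, was at 0.459, 0.275 and 0.206 CPM with PBS and at 56.5, 10.9 and 5.09 CPM with bleomycin. Its log2 change was 5.95 ± 0.94 (SE, adjusted p = 0.0099). Spp1 (chromosome 5, 104435118 to 104441050, GRCm38), which encodes the secreted phosphoprotein osteopontin, was at 8.68, 3.71 and 2.06 CPM with PBS and at 487, 145 and 53.9 CPM with bleomycin, a log2 change of 5.38 ± 0.77 (adjusted p = 0.00668). For both genes the bleomycin libraries were ordered 1, 2, 3 from high to low. Retnla, a secreted protein of alternatively activated macrophages and injured epithelium, was at 0.383, 1.1 and 0.206 CPM with PBS and at 33, 12.9 and 14.8 CPM with bleomycin (log2 change 5.19 ± 0.76, adjusted p = 0.00753). The lipid carrier gene Apoe was at 8.95, 4.68 and 7.64 CPM with PBS and at 68, 61.1 and 39.2 CPM with bleomycin (log2 change 2.95 ± 0.27, adjusted p = 0.000197). Lcn2, whose product binds iron carriers of bacteria, was at 1.76, 1.65 and 1.24 CPM and at 14.9, 29.4 and 16.3 CPM (log2 change 3.66 ± 0.35, adjusted p = 0.000234). Lcn2 was highest in replicate 2 and not in replicate 1.

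Further genes of myeloid cells were among the 12 largest rises, of which 11 are given here. The scavenger receptor gene Msr1 was at 4.44, 4.54 and 5.16 CPM with PBS and at 115, 29 and 20.6 CPM with bleomycin (log2 change 3.52 ± 0.61, adjusted p = 0.0176). Tgfbi, a matrix protein named for its induction by TGF-β, was at 22.1, 20.2 and 21.5 CPM with PBS and at 412, 84.8 and 33.5 CPM with bleomycin (log2 change 3.04 ± 0.68, adjusted p = 0.0403). PBS libraries lay close together for these genes, while the bleomycin values spread widely and replicate 1 was the highest for each.

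Genes of cell adhesion and of other cell types completed the list. Tenm2, a teneurin that joins neighbouring cells, was at 0.306, 0.688 and 3.72 CPM with PBS and at 61.2, 12.2 and 12.9 CPM with bleomycin (log2 change 4.59 ± 0.99, adjusted p = 0.0362). Chl1, an adhesion protein of the L1 family, was at 0.574, 5.78 and 1.45 CPM and at 100, 45.5 and 14.2 CPM (log2 change 4.48 ± 0.96, adjusted p = 0.0358). Both had 1 PBS library well above the other 2. The metal-binding metallothionein gene Mt1 was at 1.95, 5.92 and 0.826 CPM with PBS and at 45, 17.5 and 10.4 CPM with bleomycin (log2 change 3.03 ± 0.61, adjusted p = 0.0291). Clca3a1, of the calcium-activated chloride channel regulator family, was at 1.34, 1.65 and 0.62 CPM and at 34.5, 15.8 and 7.35 CPM (log2 change 3.87 ± 0.60, adjusted p = 0.00945). All 12 genes stayed above 0 in each of 24 other settings, and Retnla, Lcn2 and Apoe kept the call in each. From the 6 vehicle libraries alone 6 of the 12 were called with nuclei matched for class composition, and 3 without matching. Leaving out PBS_vehicle replicate 2 left 4 of the 12 called (highest adjusted p = 0.142), its replicate 3 left 5 (0.152) and its replicate 1 left 7 (0.082). Leaving out Bleo_vehicle replicate 2 left 8 (0.0713) and its replicate 1 left 9 (0.0795), with Tenm2, Chl1 and Mt1 lost in the latter.

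**Figure D1:**
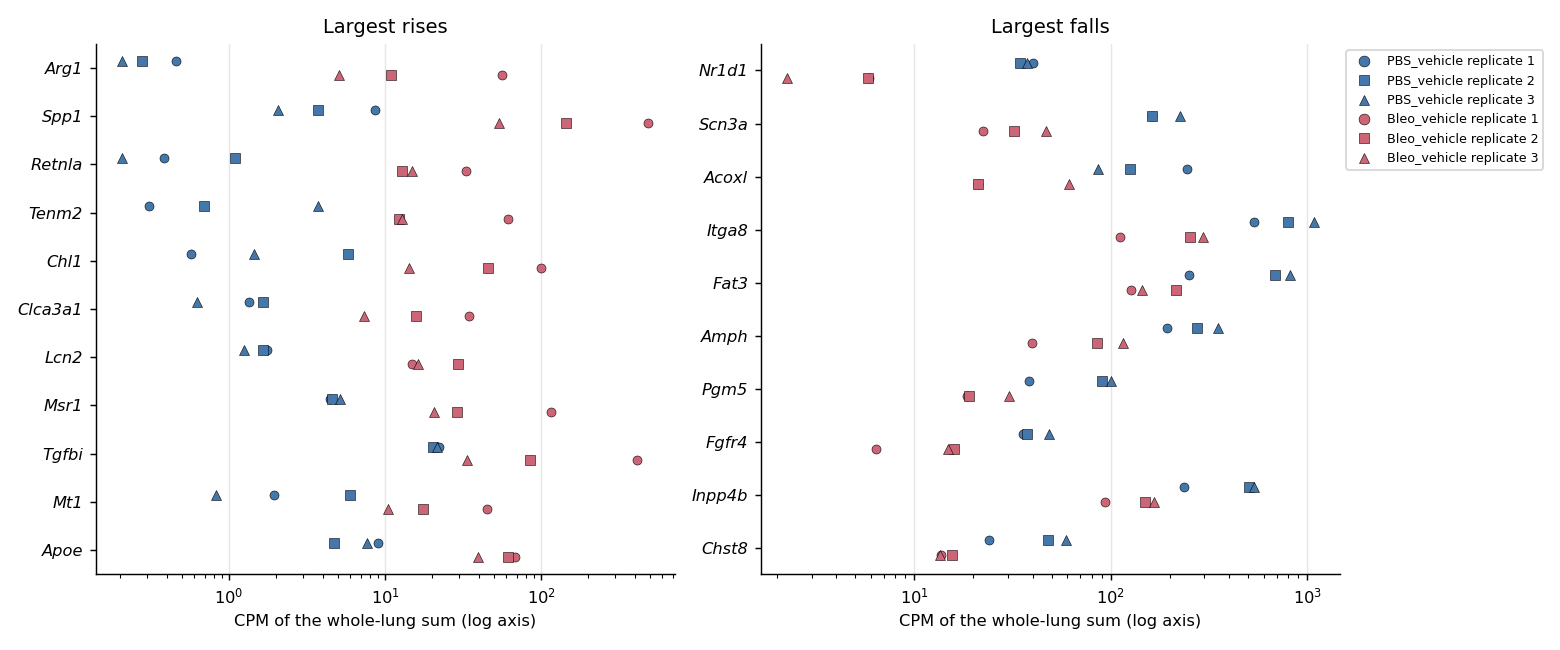
CPM of the whole-lung sum on a log axis for 11 of the 12 largest rises and the 10 largest falls, with 1 marker per library (blue PBS_vehicle, red Bleo_vehicle, shape for replicate). No gene overlaps between the groups, which the rule for picking them required. For Arg1, Spp1, Msr1 and Tgfbi the bleomycin values spread from replicate 1 at the top to replicate 3.

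The largest falls were led by Nr1d1 (chromosome 11, 98767932 to 98775333), the gene of the clock repressor REV-ERBα. It was at 40.2, 34.7 and 37.6 CPM with PBS and at 5.87, 5.83 and 2.26 CPM with bleomycin, a log2 change of -3.13 ± 0.31 (adjusted p = 0.000339). Scn3a, a voltage-gated sodium channel subunit, was at 162, 163 and 226 CPM with PBS and at 22.3, 32.3 and 47 CPM with bleomycin (log2 change -2.41 ± 0.24, adjusted p = 0.000339). The groups were far apart for both genes, with every bleomycin library well below the lowest PBS library. Itga8, the integrin α8 chain of lung mesenchyme, was at 535, 799 and 1080 CPM with PBS and at 111, 254 and 295 CPM with bleomycin (log2 change -1.86 ± 0.36, adjusted p = 0.0242). Acoxl, an acyl-CoA oxidase-like gene expressed in type II cells, was at 245, 125 and 86.1 CPM and at 21, 21 and 61.2 CPM (log2 change -2.11 ± 0.49, adjusted p = 0.0455). For Acoxl the gap between the lowest PBS and the highest bleomycin library was narrow.

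The other falls were the protocadherin gene Fat3 (log2 change -1.85 ± 0.44, adjusted p = 0.0492), the endocytic adaptor gene Amph (-1.75 ± 0.34, 0.0258), the cell junction gene Pgm5 (-1.72 ± 0.37, 0.0368), the growth factor receptor gene Fgfr4 (-1.64 ± 0.28, 0.0164), the lipid phosphatase gene Inpp4b (-1.63 ± 0.34, 0.0333) and the sulfotransferase gene Chst8 (-1.60 ± 0.34, 0.0354). All 10 stayed below 0 in each of the 24 other settings, and Nr1d1 and Scn3a kept the call in each. From the 6 vehicle libraries alone 3 of the 10 were called with nuclei matched for class composition, and 2 without matching. Nr1d1 and Scn3a were also the only falls called without PBS_vehicle replicate 2 (highest adjusted p = 0.149) and without PBS_vehicle replicate 3 (0.184), while 3 were called without Bleo_vehicle replicate 2 (0.129), 5 without Bleo_vehicle replicate 1 (0.139) and 9 without PBS_vehicle replicate 1 (0.101) or without Bleo_vehicle replicate 3 (0.0564).

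Nuclei were grouped into 18 classes from marker genes, and each class is to be read as X-like, since names were rebuilt from clusters. The UMIs of a gene in a class, scaled to the UMIs of the library, add up over classes to the whole-lung level, so each class's part of a difference could be read off directly, with no test. Of the rise in Arg1, nuclei of the interstitial macrophage or monocyte class made up 54.7% and those of the alveolar macrophage class 26.8%. The interstitial class also held the largest part of the rises in Msr1 (46.7%), Tgfbi (34.1%) and Apoe (20.8%). Tenm2 was found mostly in the AT1 class (75.4%) and Chl1 in the fibroblast class (75.2%). The rise of Spp1 was spread over alveolar macrophages (23.1%), fibroblasts (18.8%), the interstitial class (17.2%) and AT1 (7.64%), and no class held over 20% of the rises in Retnla, Clca3a1 or Lcn2. At a finer clustering 4 and without batch correction 7 of the 12 rises, in place of 5, had the interstitial class as their largest named part.

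The larger part of most falls lay in 1 class. The fibroblast class held 98.2% of the fall in Itga8, 97.1% in Fat3, 91% in Scn3a and 86% in Inpp4b. For Chst8 its part was 103%, since the level in AT1 moved the other way. Of the fall in Acoxl 89.6% lay in the AT2 class, and of that in Nr1d1 49.1% lay in fibroblasts, 19% in AT1 and smaller parts elsewhere. Compared on class sums, Acoxl was called in 0 of the 6 classes where it was tested. Fibroblasts gave 20.5%, 28.6% and 32.6% of UMIs with PBS and 17.6%, 20.3% and 14.2% with bleomycin, and the interstitial class 1.24%, 1.08% and 1.26% against 7.24%, 4.98% and 4.05%, without overlap for either. By nuclei the fibroblast shares overlapped, at 20.8%, 17.0% and 27.0% with PBS and 20.5%, 23.6% and 14.4% with bleomycin. Interstitial shares of nuclei stayed apart, at 1.22%, 2.34% and 1.84% against 8.62%, 5.28% and 5.22%. Doublets, kept out of the classes, held 6.63%, 2.41% and 1.54% of UMIs with PBS and 2.49%, 6.75% and 21.4% with bleomycin. These shares carry no test, since the clustering used genes that differ between the groups.

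**Figure D2:**
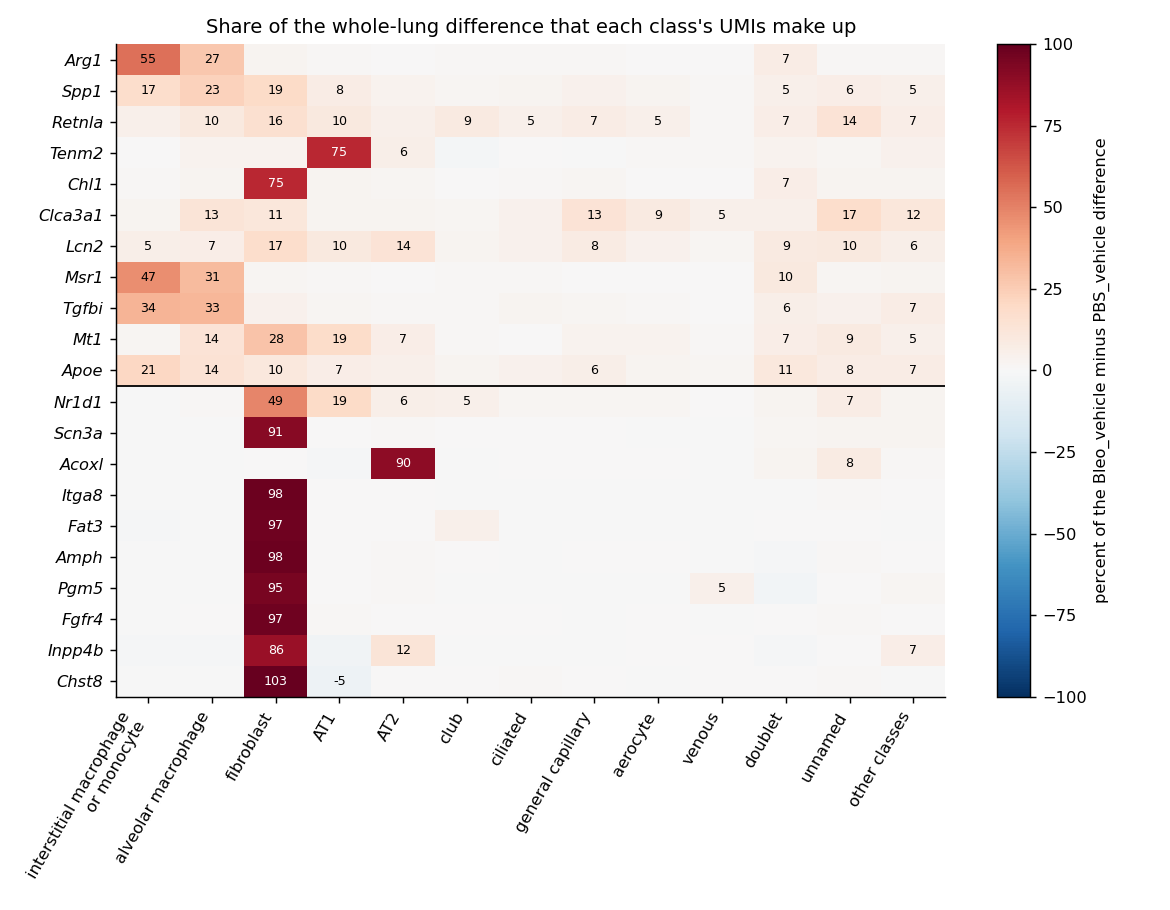
Percent of the Bleo_vehicle minus PBS_vehicle difference that the UMIs of each class make up, for 11 of the 12 largest rises (above the line) and the 10 largest falls. Red is a part in the direction of the whole-lung change and values of at least 5 in size are printed; the falls apart from Nr1d1 and Acoxl sit in the fibroblast column, while Spp1, Retnla, Clca3a1 and Lcn2 are spread over many classes.

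Within the fibroblast class, compared on its own sums, 404 of 10386 tested genes were higher (3.89%) and 127 lower (1.22%). Chl1 was at 0.377, 2.02 and 0 CPM with PBS and at 414, 133 and 60.9 CPM with bleomycin, a log2 change of 8.04 ± 0.97 (adjusted p = 0.00142). Spp1 was at 0.942, 0 and 0 CPM and at 510, 118 and 39.1 CPM (log2 change 8.50 ± 1.25, adjusted p = 0.00467), from 5 UMIs over the PBS libraries and 1089 over the bleomycin libraries. Both kept the call in each of 11 other settings. Nr1d1 was at 95.3, 55 and 54.1 CPM and at 2.6, 8.25 and 4.95 CPM (log2 change -3.58 ± 0.31, adjusted p = 9.93e-06). Gsg1l, a subunit that associates with AMPA-type glutamate receptors, was at 18.1, 59.6 and 63.3 CPM and at 0, 1.98 and 6.44 CPM (log2 change -3.42 ± 0.65, adjusted p = 0.0132; 0.0559 without Bleo_vehicle replicate 2). Itga8 (log2 change -1.57 ± 0.33, adjusted p = 0.0152) and Scn3a (-2.14 ± 0.30, 0.0015) also fell among fibroblasts themselves. The class joins 4 clusters that the libraries filled unequally: the one led by B530045E10Rik, with Itga8, Amph, Fat3 and Fgfr4 among its leading genes, held 53.5%, 46.7% and 47.3% of fibroblast nuclei with PBS and 24.8%, 33.4% and 40.4% with bleomycin. The part of this shift in the changes within the class was not tested. Without batch correction a cluster of 1804 nuclei led by Chl1 and Tnc, 52.9% of them from Bleo_vehicle replicate 2, got no class name and stayed out of the fibroblast sums. Col1a1, which encodes the main type I collagen chain, was at 84.4, 57.1 and 70.4 CPM and at 233, 95.3 and 73.7 CPM, and its log2 change of 0.85 ± 0.38 did not pass the test (adjusted p = 0.252).

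In the AT1 class 223 of 9267 genes were higher (2.41%) and 126 lower (1.36%). Msln, a surface glycoprotein best known from mesothelium, was at 0.333, 0.661 and 1.4 CPM with PBS and at 231, 17.6 and 7.95 CPM with bleomycin (log2 change 7.02 ± 1.68, adjusted p = 0.0498), a call that was lost without any 1 of the 3 PBS_vehicle libraries or without Bleo_vehicle replicate 2 (highest adjusted p = 0.156). Tenm2 was at 0.167, 0.661 and 4.2 CPM and at 163, 34.9 and 36.3 CPM (log2 change 6.15 ± 1.21, adjusted p = 0.0235). Pde8b, a phosphodiesterase that degrades cyclic AMP, was at 977, 1430 and 1400 CPM and at 70.7, 268 and 311 CPM (log2 change -2.53 ± 0.42, adjusted p = 0.01). For Pde8b and Tenm2 the groups were far apart, and replicate 1 was the bleomycin library farthest from PBS. In the AT2 class 117 of 6052 genes were higher (1.93%) and 75 lower (1.24%). The non-coding RNA Pvt1 was at 5.06, 8 and 17.2 CPM and at 160, 124 and 52.7 CPM (log2 change 3.73 ± 0.72, adjusted p = 0.0182; up to 0.109 without PBS_vehicle replicate 1, PBS_vehicle replicate 2 or Bleo_vehicle replicate 2), and Bub1, a kinase of the mitotic checkpoint, was at 23.4, 90.6 and 25.8 CPM and at 0, 4.96 and 7.05 CPM (-2.86 ± 0.70, 0.0381). The Bub1 call was lost in 7 of 10 other settings, among them without PBS_vehicle replicate 2 or 3 or any 1 Bleo_vehicle library (highest adjusted p = 0.157).

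In the airway classes, club and ciliated, 149 of 7030 (2.12%) and 103 of 5923 genes (1.74%) were higher, and 37 (0.526%) and 3 (0.0507%) were lower. The ciliated calls, 106 in all, depended most on the settings: 0 were made from the 6 vehicle libraries alone, 20 when Bleo_vehicle replicate 2 was left out, 1737 when its replicate 3 was and 754 when doublets were kept. In club nuclei the lysosomal protease gene Ctss had 1 UMI over the PBS libraries and 76 over the bleomycin libraries, where it was at 58.5, 45.5 and 26.8 CPM, a ratio of 44.5 with a 95% counting interval of 7.75 to 1780 (adjusted p = 0.0032). Erbb4, a receptor for neuregulins, was at 260, 205 and 156 CPM and at 43.9, 22.7 and 33.8 CPM (log2 change -2.77 ± 0.54, adjusted p = 0.0195), whereas in AT1 nuclei it rose from 1.17, 4.62 and 2.8 CPM to 34.9, 11.4 and 23.6 CPM (3.23 ± 0.63, 0.0135). The Erbb4 call in club nuclei was lost without PBS_vehicle replicate 2 or any 1 Bleo_vehicle library (highest adjusted p = 0.108). In ciliated nuclei Apoe had 2 UMIs with PBS and 131 with bleomycin (ratio 26.3, 95% interval 7.14 to 220, adjusted p = 0.00588), and Vwf, the von Willebrand factor gene of endothelium, was at 8.52, 3.22 and 6.36 CPM and at 286, 205 and 41.9 CPM (log2 change 4.49 ± 0.82, adjusted p = 0.00932). Both calls were lost without Bleo_vehicle replicate 2 (highest adjusted p = 0.209 and 0.0888). The ciliated falls named by size were Sco2, a mitochondrial copper chaperone (log2 change -1.58 ± 0.36, adjusted p = 0.0293), and Greb1l (-1.44 ± 0.35, 0.0411), which were lost without PBS_vehicle replicate 2 or 3 or Bleo_vehicle replicate 2 (up to 0.256 and 0.392). Greb1l was lost also without PBS_vehicle replicate 1 or Bleo_vehicle replicate 1.

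In the endothelial classes, general capillary nuclei had 186 of 6119 genes higher (3.04%) and 30 lower (0.49%), aerocytes 39 of 4755 (0.82%) and 3 (0.0631%), and venous nuclei 42 of 3585 (1.17%) and 2 (0.0558%). Csmd1, a large membrane protein with complement-control domains, was at 3.19, 7.22 and 9.03 CPM with PBS and at 175, 138 and 87.9 CPM with bleomycin in general capillary nuclei (log2 change 4.64 ± 0.55, adjusted p = 2.32e-05). In venous nuclei Csmd1 had 0 UMIs over the PBS libraries and was at 297, 272 and 76 CPM with bleomycin, at least 24.1-fold higher against a floor of 3 UMIs per group (adjusted p = 0.000679; 0.0592 without Bleo_vehicle replicate 2). Csmd1 was thus among the rises picked by the rule in both classes. The semaphorin gene Sema6d was at 939, 1200 and 1650 CPM and at 323, 351 and 543 CPM in general capillary nuclei (log2 change -1.59 ± 0.28, adjusted p = 0.00266). In aerocytes, the capillary cells with large surface over alveoli, the kinesin gene Kif26b was at 338, 497 and 674 CPM and at 101, 68.1 and 134 CPM (-2.22 ± 0.30, 0.000381), whereas in fibroblasts it rose from 3.2, 1.51 and 2.61 CPM to 268, 39.9 and 64 CPM (5.45 ± 0.83, 0.00473). Fkbp5, a co-chaperone induced by glucocorticoids, was at 7.73, 16.8 and 0 CPM and at 180, 153 and 42.5 CPM (3.65 ± 0.68, 0.011; 0.191 without PBS_vehicle replicate 1). The smaller falls in Abi3bp in aerocytes (-1.72 ± 0.36, 0.0409), Neurl3 in general capillary nuclei (-1.61 ± 0.43, 0.0445) and Pde4b in venous nuclei (-1.10 ± 0.27, 0.0363) were each lost in 7 or 8 other settings, among them without any 1 PBS_vehicle library or without Bleo_vehicle replicate 2 (highest adjusted p = 0.246, 0.201 and 0.556). Neurl3 and Pde4b were lost also without Bleo_vehicle replicate 1.

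In the alveolar macrophage class 241 of 6113 genes were higher (3.94%) and 32 lower (0.523%). Cacna1d, an L-type calcium channel subunit, was at 5.53, 13.8 and 12.5 CPM with PBS and at 1200, 473 and 72.4 CPM with bleomycin (log2 change 6.16, adjusted p = 0.022; up to 0.131 without PBS_vehicle replicate 1, PBS_vehicle replicate 3 or Bleo_vehicle replicate 2). Gas7, a membrane-shaping adaptor, was at 0.921, 8.28 and 4.18 CPM and at 307, 126 and 29.3 CPM (5.84 ± 1.08, 0.0112; 0.107 without PBS_vehicle replicate 1). Both spread widely among bleomycin libraries, with replicate 3 nearest to PBS. Itgad, an integrin chain of resident macrophages, was at 18, 13.8 and 66.9 CPM and at 6.26, 2.28 and 2.25 CPM (log2 change -3.21 ± 0.78, adjusted p = 0.0241; up to 0.102 without PBS_vehicle replicate 1, PBS_vehicle replicate 3 or Bleo_vehicle replicate 2). The peroxisomal thiolase gene Acaa1b was at 105, 52.4 and 58.5 CPM and at 4.17, 26.2 and 17.3 CPM (-2.16 ± 0.38, 0.00368; 0.075 without PBS_vehicle replicate 1). In the interstitial class, which had only 46, 58 and 27 nuclei with PBS, 1 of 2709 genes was called higher (0.0369%). It was Cacna1d, at 250, 319 and 231 CPM and at 3200, 1960 and 943 CPM (log2 change 2.93 ± 0.45, adjusted p = 0.0439; up to 0.316 without PBS_vehicle replicate 1 or 2 or Bleo_vehicle replicate 1 or 2). Over the whole lung Cacna1d did not pass the test (log2 change -0.20 ± 0.21, adjusted p = 0.64).

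Several genes moved in one direction in most classes where they could be tested. Spp1 was called higher in 7 of 9 classes, with log2 changes of 5.31 to 8.50 over the 9, and Apoe in 7 of 8 (0.54 to 5.02). Nr1d1 was called lower in 4 of 5 classes (-3.58 to -1.95), and Cry1 higher in 4 of 8 (0.45 to 2.35). In AT2 nuclei Spp1 had 1 UMI over the PBS libraries and 305 over the bleomycin libraries (ratio 150, 95% counting interval 26.8 to 5960, adjusted p = 0.00269). Where a gene was this near the floor with PBS, as Spp1 also was in fibroblasts, it entered the test only through its bleomycin counts. Such a class without the rise would have been left untested, so the count of classes cannot show how widely Spp1 rose. Without PBS_vehicle replicate 1 the Spp1 call was lost in AT1, aerocyte, club and general capillary nuclei (highest adjusted p = 0.0679, 0.242, 0.216 and 0.0818), without PBS_vehicle replicate 2 in AT1, aerocyte and club nuclei, and without PBS_vehicle replicate 3 in AT1 and club nuclei. The Nr1d1 call was lost in AT1 without any 1 PBS_vehicle library or without Bleo_vehicle replicate 2 (highest adjusted p = 0.122), and in club nuclei without Bleo_vehicle replicate 3 (0.143). Classes share libraries, so these counts are not independent of each other.

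Genes of one cell type also rose in the classes of others. Sftpc, the surfactant protein C gene that marks AT2 cells, was called higher in 8 of 11 classes, and in AT2 nuclei its log2 change was 0.08 ± 0.28 (adjusted p = 0.949). In fibroblasts it was at 69.7, 34.8 and 26.1 CPM with PBS and at 196, 827 and 829 CPM with bleomycin (log2 change 3.78 ± 0.58, adjusted p = 0.00513), and in arterial nuclei, for which Bleo_vehicle replicate 1 was left out, at 230, 43.4 and 320 CPM and at 2320 and 2530 CPM (3.63 ± 0.54, 0.00208). The lysozyme gene Lyz2, of macrophages and AT2 cells, was called higher in 9 of 11 classes, among them venous nuclei, where it was at 12.7, 6.41 and 12.6 CPM and at 127, 394 and 395 CPM (4.93 ± 0.57, 1.94e-06). The mitochondrial gene mt-Co1 was called higher in 10 of 11 classes with log2 changes of 3.56 to 5.52. For Sftpc and Lyz2 replicate 1 was the lowest bleomycin library, in contrast to Spp1 and mt-Co1, for which it was the highest. No correction for RNA outside nuclei was applied, and its part in the changes within classes was not tested, including those of Spp1, Apoe, Sftpc and Lyz2, of Ctss in club, Vwf in ciliated and Msln in AT1 nuclei. Ctss was called higher in 4 of 6 classes and not in alveolar macrophages (log2 change 0.53 ± 0.17, adjusted p = 0.0903). Vwf was called higher in 4 of 9 classes and had a log2 change of -0.01 ± 0.26 (0.999) in venous nuclei. The arterial class had 17 of 2296 genes higher (0.74%).

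**Figure D3:**
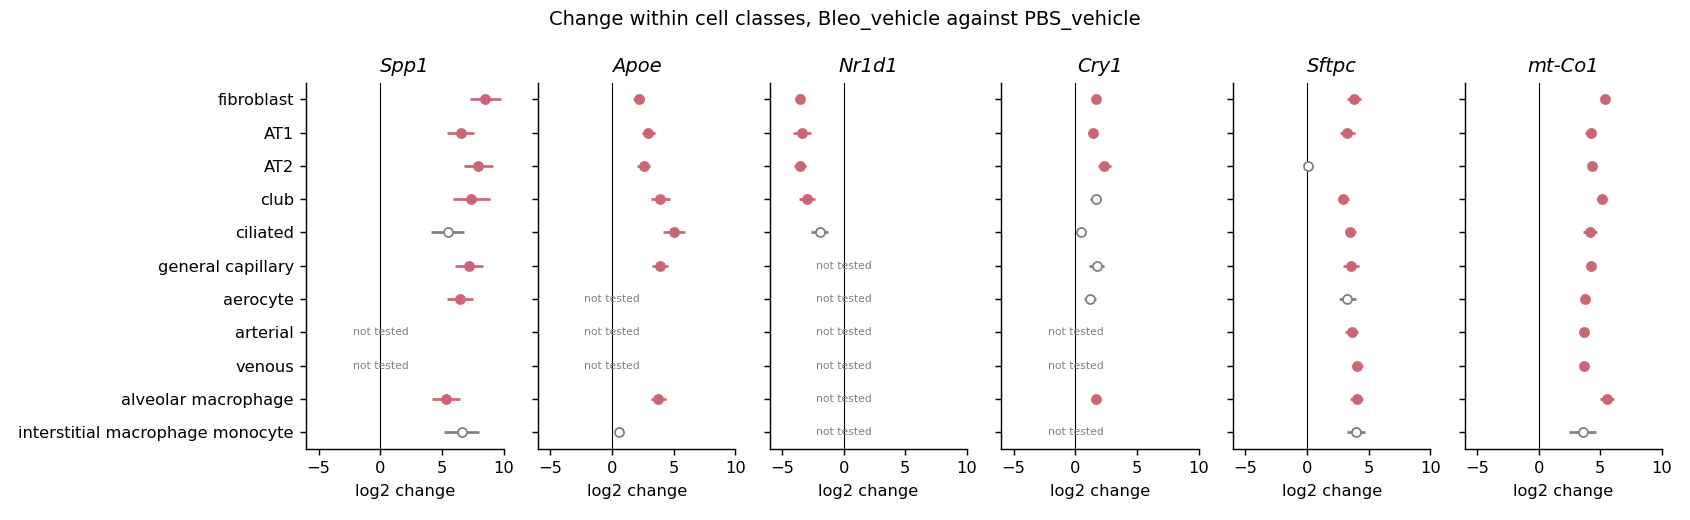
Log2 change (Bleo_vehicle against PBS_vehicle, bars 1 SE) of 6 genes within the 11 classes tested, with filled red points where adjusted p is under 0.05 and open grey points elsewhere. Nr1d1 lies below 0 in all 5 classes in which it was tested, Spp1, Apoe and mt-Co1 lie above 0 in every class tested, and Sftpc lies near 0 in AT2 only. Where Spp1 was near the floor with PBS, only its bleomycin counts brought it into the test.

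The rest of the whole-lung account follows gene lists, given by how many tested members passed the test and by the list's median beside the all-gene median of 0.005. Of all genes tested 1.88% were called higher and 0.734% lower, and the single calls in the AT1, AT2, capillary, cytokine, interferon and provisional matrix lists are too few to say anything of those lists. Of 23 genes of scar-associated macrophages, which digest matrix and lipid, 8 rose and 0 fell, with a median log2 change of 1.28. The 8 were Arg1, Spp1, Apoe, the lipid receptor gene Trem2 (3.83), the elastase gene Mmp12 (2.51), the lysosomal membrane genes Gpnmb (2.30) and Cd63 (1.73) and the cathepsin gene Ctsb (1.40). Gpnmb was at 13.9, 7.84 and 4.96 CPM with PBS and at 46.2, 52 and 39.6 CPM with bleomycin (adjusted p = 0.00814), even among bleomycin libraries and far from PBS. The count was 2 without PBS_vehicle replicate 2 and 5 without PBS_vehicle replicate 3, and 8 without Bleo_vehicle replicate 1. Of 19 complement genes 4 rose, namely the C1q chains C1qa (3.28 ± 0.57, adjusted p = 0.0176), C1qb (4.12 ± 0.56, 0.00451) and C1qc (3.50 ± 0.74, 0.0341) and the receptor gene C3ar1 (3.60 ± 0.63, 0.0176), with 2 left without PBS_vehicle replicate 2 or 3.

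Other myeloid and immune lists gave few calls. Of 16 cytokine, chemokine and receptor genes tested 1 rose (0 were called without PBS_vehicle replicate 2 or 3), and 17 more, Ccl2, Il6 and Tnf among them, were too low to test. Of 14 genes of alveolar macrophage identity edgeR called 0, with 3 at an unadjusted p under 0.05, 0 by DESeq2 and 3 by voom. Mrc1, the mannose receptor gene, was at 214, 141 and 110 CPM and at 522, 212 and 195 CPM (0.99 ± 0.38, adjusted p = 0.182), with overlap. Of 8 MHC class II genes 0 were called (5 unadjusted, 1 by DESeq2, 4 by voom), with a median of 0.83. The invariant chain gene Cd74 was at 23.3, 15.5 and 12.8 CPM and at 17.9, 65.9 and 83.5 CPM (1.70 ± 0.42, 0.057), with Bleo_vehicle replicate 1 inside the PBS range. Of 26 interferon-stimulated genes Oasl2 rose (0.75 ± 0.17, 0.0422) and was the only one called, with 0 called without PBS_vehicle replicate 2 or 3 or Bleo_vehicle replicate 1 or 2.

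Of 24 fibrillar collagen and collagen assembly genes edgeR called 0 (4 at an unadjusted p under 0.05, 4 by DESeq2 and 4 by voom), with a median of 0.30. Col1a1 was at 23.4, 18.6 and 26 CPM with PBS and at 96.4, 53.1 and 28.2 CPM with bleomycin (1.37 ± 0.35, adjusted p = 0.0644), without overlap but with replicate 3 just above the PBS libraries. Col3a1 was at 146, 211 and 126 CPM and at 205, 186 and 156 CPM (0.18 ± 0.26, 0.756), and Col5a2 at 212, 263 and 273 CPM and at 477, 259 and 196 CPM (0.32 ± 0.27, 0.562), both with overlap. Of 18 elastic fibre genes Ltbp2, a latent TGF-β binding protein of microfibrils (2.18 ± 0.47, 0.0367), and Fbln2, a fibulin (1.79 ± 0.41, 0.0449), rose, and both calls were lost without any 1 PBS_vehicle library or without Bleo_vehicle replicate 1 or 2 (highest adjusted p = 0.152 and 0.18). Elastin itself, Eln, was at 278, 194 and 109 CPM and at 751, 446 and 352 CPM (1.41 ± 0.38, 0.0775), without overlap, and 63.5% of its difference lay in fibroblasts. Within classes Eln was called higher in 4 of the 10 where it was tested, and not in fibroblasts. The 4 were aerocyte, alveolar macrophage, ciliated and general capillary nuclei, and the part of RNA outside nuclei in these calls was not tested. Of 11 genes of provisional matrix and plasminogen activation the hyaluronan receptor gene Cd44 rose (0.54 ± 0.12, 0.0358), a call that did not hold when PBS_vehicle replicate 2 or 3, or Bleo_vehicle replicate 1 or 2, was left out.

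Genes of activated fibroblasts and of TGF-β were called in part. Of 20 activated fibroblast genes 4 rose, Spp1, the metalloproteinase inhibitor gene Timp1 (4.18 ± 0.87, adjusted p = 0.0322), the chromatin protein gene Hmga2 (3.53 ± 0.81, 0.0449) and Wisp1, a secreted CCN protein (3.12 ± 0.74, 0.0492), with a median of 0.87. Without Bleo_vehicle replicate 1 2 of the 20 were called, without PBS_vehicle replicate 2 0 and without PBS_vehicle replicate 3 or Bleo_vehicle replicate 2 1. Acta2, the smooth muscle actin gene, was at 4.36, 5.5 and 16.1 CPM and at 14.7, 11.7 and 10.1 CPM (0.54 ± 0.77, 0.749), and its groups overlapped. Of 22 TGF-β ligands, receptors and targets Tgfbi, Ltbp2 and the feedback inhibitor gene Pmepa1 (0.91 ± 0.22, 0.0492) rose, while the median was 0.16, and 1 was called without Bleo_vehicle replicate 1 and 0 without PBS_vehicle replicate 2 or 3 or Bleo_vehicle replicate 2. Of 12 matrix metalloproteinase and TIMP genes Mmp12, Mmp19 (1.78 ± 0.33, 0.023) and Timp1 rose, with 3 without Bleo_vehicle replicate 1 and 0 without PBS_vehicle replicate 2 or Bleo_vehicle replicate 2.

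Among epithelial genes, 3 of 24 genes of the transitional state rose. The median of the 24 was 0.95. Without overlap 13 lay above the PBS libraries and 0 below, where 11.2% and 9.52% of all genes tested did. Cldn4, a tight junction claudin, was at 0.344, 0.138 and 0 CPM with PBS and at 7.83, 1.56 and 1.46 CPM with bleomycin (3.72 ± 0.85, adjusted p = 0.0442), Sfn, a 14-3-3 protein, had a log2 change of 2.60 ± 0.51 (0.0258), and the chaperone gene Clu 1.57 ± 0.36 (0.0442). Krt8, the keratin that gives the state its name, was at 11.2, 11.6 and 9.5 CPM and at 32.5, 14.4 and 17.1 CPM (0.95 ± 0.29, 0.108), without overlap. Of these 24 genes 0 were called without PBS_vehicle replicate 2 or 3, 2 without Bleo_vehicle replicate 1 and 11 without Bleo_vehicle replicate 3. Of 19 surfactant and AT2 genes Ctsh, a protease that processes surfactant proteins, rose (1.28 ± 0.17, 0.00433), and 6 were called without Bleo_vehicle replicate 1. Of 20 AT1 genes the podoplanin gene Pdpn rose (0.69 ± 0.13, 0.0223), and of 24 capillary endothelial genes Hmcn1 fell (-0.62 ± 0.14, 0.0455). The Hmcn1 call and the Pdpn call were both lost without PBS_vehicle replicate 2 or 3 or Bleo_vehicle replicate 2, and that of Hmcn1 also without PBS_vehicle replicate 1 or Bleo_vehicle replicate 1.

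Genes of the p53 response, which DNA damage activates, gave 5 rises among 27 tested and a median of 0.69. Dglucy was at 28.8, 26.1 and 42.7 CPM with PBS and at 72.4, 60.1 and 66 CPM with bleomycin (1.03 ± 0.22, adjusted p = 0.033), and the others were the stress sensor gene Sesn2 (1.08 ± 0.25, 0.0442), the cyclin gene Ccng1 (0.95 ± 0.20, 0.0354), Rps27l (1.22 ± 0.24, 0.0254) and the spindle gene Ckap2 (2.84 ± 0.60, 0.0341). Cdkn1a, which encodes the cell cycle inhibitor p21, was at 12.5, 6.74 and 10.1 CPM and at 49.7, 20.8 and 21 CPM (1.59 ± 0.40, 0.0579), without overlap. Of the 27, 1 was called without Bleo_vehicle replicate 1 or without PBS_vehicle replicate 3, 0 without PBS_vehicle replicate 2 or Bleo_vehicle replicate 2, and 8 without Bleo_vehicle replicate 3. Of 26 proliferation genes edgeR called 0 (8 unadjusted, 1 by DESeq2, 7 by voom), with Diaph3, a formin of cell division, at 0.78 ± 0.23 (0.0963) and the DNA polymerase gene Pola1 at -0.12 ± 0.17 (0.744). The median of the 26 was 0.54. Without overlap 13 lay above the PBS libraries and 1 below, where 11.2% and 9.52% of all genes tested did. Of 24 immediate-early genes edgeR called 0 (2 unadjusted, 1 by DESeq2, 0 by voom), with Klf6 at 0.16 ± 0.13 (0.546) and the phosphatase gene Dusp1 at -0.19 ± 0.46 (0.862).

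All 13 protein-coding genes of the mitochondrial genome rose, by log2 changes of 3.88 to 5.33. The cytochrome oxidase gene mt-Co1 was at 86.8, 128 and 92.3 CPM with PBS and at 2920, 2180 and 1150 CPM with bleomycin (4.35 ± 0.34, adjusted p = 7.2e-05), and mt-Co3 (4.20), mt-Atp6 (4.26) and mt-Co2 (4.37) moved alike. All 13 were called without each of the 6 vehicle libraries in turn, and with nuclei limited to at most 1% mitochondrial UMIs. Of 31 respiratory chain genes encoded in the nucleus edgeR called 0 (10 unadjusted, 2 by DESeq2, 5 by voom), with a median of 0.20, Ndufs4 at -0.24 ± 0.12 (0.319) and Sdha at -0.29 ± 0.12 (0.216). Of 32 cytoplasmic ribosomal protein genes 21 rose and all 32 lay above the PBS libraries without overlap (11.2% of all genes tested did), with a median of 1.46, Rps14 at 26, 20.9 and 17.1 CPM and at 56, 51.8 and 45.3 CPM (1.24 ± 0.18, 0.00732), Rps24 at 1.04 ± 0.20 (0.0271) and Rplp1 at 1.55 ± 0.29 (0.0238). The ribosomal calls numbered 0 and 1 when PBS_vehicle replicates 2 and 3 were left out in turn, 7 and 4 when Bleo_vehicle replicates 1 and 2 were, and 0 when nuclei needed 500 UMIs or more with mitochondrial genes at 1% or less. Mature transcripts of ribosomal proteins and of mitochondria lie outside the nucleus, and the part of adhering cytoplasm in the other rises was not tested. Haemoglobin genes, a sign of blood, gave 0 calls of 4 (0 unadjusted and by either other tool), with Hbb-bs at 76.2, 2.2 and 0.206 CPM and at 20.6, 77.5 and 16 CPM and Hba-a1 at a log2 change of 0.42 ± 1.45 (0.908).

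**Figure D4:**
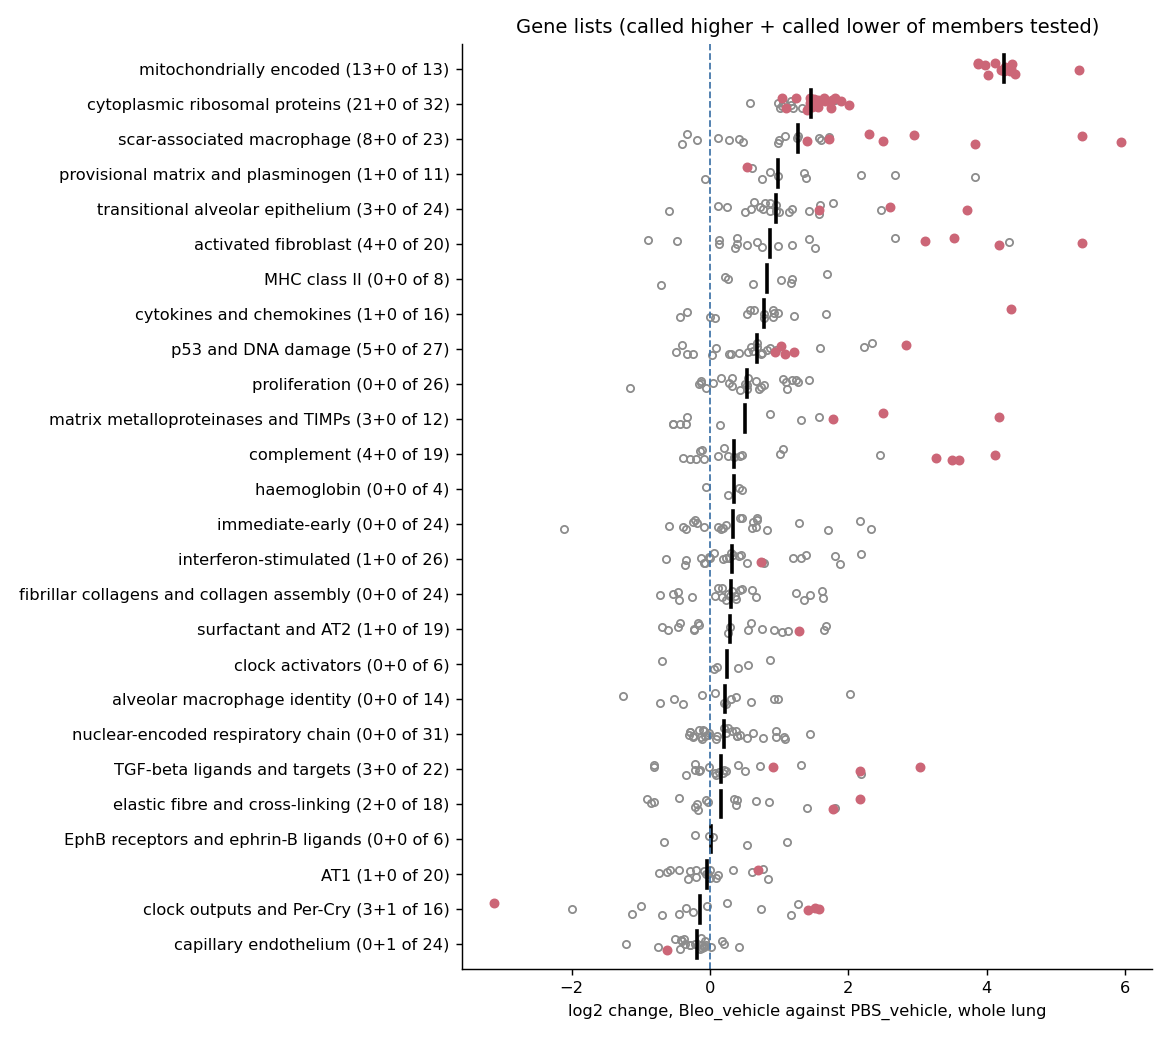
Log2 change over the whole lung of each tested member of 26 gene lists (circles, filled red where adjusted p is under 0.05), with the list median as a black bar and the median of all genes as a dashed line. Mitochondrially encoded genes lie farthest to the right and ribosomal protein genes shift as a block around 1.46. The other lists hold 0 to 8 called genes each, with medians from -0.18 to 1.28.

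Of 16 clock output and Per-Cry genes, 3 rose and Nr1d1 fell. Cry1 (chromosome 10, 85131700 to 85185064), a repressor of BMAL1 and CLOCK, was at 13.8, 17.5 and 17.3 CPM with PBS and at 49.7, 41.6 and 47.2 CPM with bleomycin (1.52 ± 0.18, adjusted p = 0.00208), and kept its call in each of 24 other settings. The REV-ERB target gene Nfil3 was at 2.98, 4.26 and 2.89 CPM and at 14.2, 9.31 and 7.29 CPM (1.57 ± 0.38, 0.05, just under the threshold). The groups did not overlap for Cry1 or Nfil3, and the bleomycin libraries were close together for Cry1. The Nfil3 call was lost in 17 of 24 other settings (up to 0.179), among them without any 1 PBS_vehicle library or without Bleo_vehicle replicate 1 or 2. Dbp, an output driven from E-boxes, was at 5.78, 9.35 and 14.5 CPM and at 0.979, 4.26 and 1.62 CPM (-1.99 ± 0.51, 0.0618), and Nr1d2 at 115, 216 and 222 CPM and at 89.1, 133 and 55.9 CPM (-0.99 ± 0.33, 0.134). Of 6 clock activators edgeR called 0 (0 unadjusted, 0 by DESeq2 and by voom), with Clock at 182, 185 and 186 CPM and at 204, 175 and 213 CPM (0.10 ± 0.10, 0.619) and Rora at 0.05 ± 0.28 (0.943). The time of day at which lungs were taken is not given in the sources used here, and its part in these values was not tested.

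**Figure D5:**
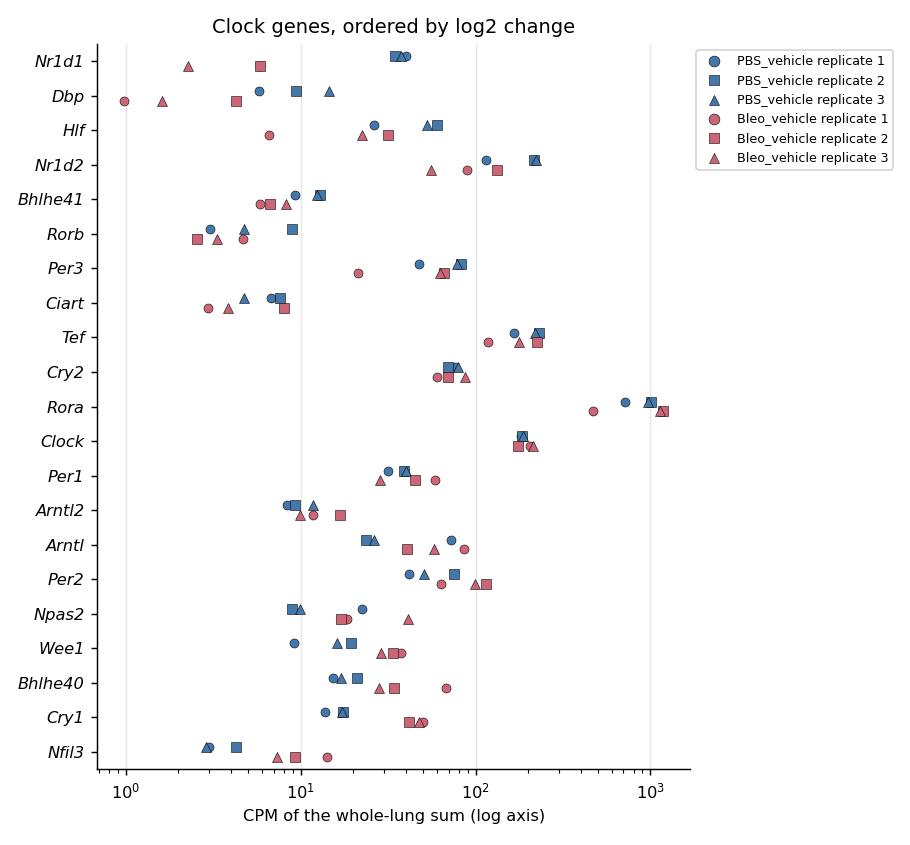
CPM of the whole-lung sum on a log axis for 21 clock genes in order of their log2 change, with 1 marker per library. Nr1d1 at the top and Nfil3 and Cry1 at the bottom have separate groups, while most genes between them overlap.

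Promoter sequences of clock genes are shown for Nr1d1, Cry1 and Nfil3, the genes of the loop that moved most in each direction, from 250 bases before to 50 after the transcript start as RefSeq gives it on GRCm38.p6. The E-box CACGTG and the ROR and REV-ERB half-site AGGTCA (read on both strands, so also as TGACCT) were searched, and matches are in capitals. All 3 genes lie on the minus strand, at chr11:98775328-98775627, chr10:85185005-85185304 and chr13:52980990-52981289 in this order.
Nr1d1: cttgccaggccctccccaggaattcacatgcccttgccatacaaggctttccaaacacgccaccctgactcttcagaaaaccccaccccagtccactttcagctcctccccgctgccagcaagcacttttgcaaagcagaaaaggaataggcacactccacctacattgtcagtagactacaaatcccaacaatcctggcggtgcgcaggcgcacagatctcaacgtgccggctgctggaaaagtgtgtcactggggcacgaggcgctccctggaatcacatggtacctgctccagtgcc
Cry1: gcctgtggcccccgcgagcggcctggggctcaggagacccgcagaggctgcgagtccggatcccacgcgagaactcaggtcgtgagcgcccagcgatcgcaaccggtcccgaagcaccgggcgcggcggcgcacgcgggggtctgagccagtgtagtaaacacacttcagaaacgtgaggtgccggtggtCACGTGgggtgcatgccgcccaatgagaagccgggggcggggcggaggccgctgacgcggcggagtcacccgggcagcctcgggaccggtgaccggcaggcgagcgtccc
Nfil3: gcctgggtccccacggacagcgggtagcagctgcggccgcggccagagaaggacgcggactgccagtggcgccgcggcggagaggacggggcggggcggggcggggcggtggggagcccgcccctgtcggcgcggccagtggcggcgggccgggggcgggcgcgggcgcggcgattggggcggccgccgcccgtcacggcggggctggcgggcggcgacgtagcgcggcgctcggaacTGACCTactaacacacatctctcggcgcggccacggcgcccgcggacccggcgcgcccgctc
The Cry1 window held CACGTG, the Nfil3 window TGACCT, both before the transcript start, and the Nr1d1 window neither. Of 32851 mouse promoter windows of this length 7.15% held CACGTG and 16.3% AGGTCA on either strand. Of the 22 clock genes 18 were matched, with 24 windows, and 5 genes held the E-box and 5 the half-site. A gene was counted when any of its windows held the match, so these counts are not comparable with the shares of single windows. A match describes letters in this window and no binding was measured.

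The EphB receptors and ephrin-B ligands, the family the study addresses, gave 0 calls of 6 tested (1 at an unadjusted p under 0.05, 0 by DESeq2 and by voom). Ephb4 was at 45.6, 28.2 and 25.6 CPM with PBS and at 28.1, 41.3 and 29.3 CPM with bleomycin, a log2 change of -0.02 ± 0.28 (adjusted p = 0.981). Its ligand gene Efnb2 was at 129, 113 and 93.3 CPM and at 47, 72.2 and 90 CPM (-0.67 ± 0.24, 0.167). The Ephb4 values overlapped fully, while each bleomycin value of Efnb2 lay below every PBS value. In the fibroblast class Efnb2 was called higher, at 6.03, 7.07 and 3.91 CPM with PBS and at 27.3, 19.5 and 11.4 CPM with bleomycin (1.64 ± 0.39, adjusted p = 0.0243), which was 1 of the 9 classes where it was tested, and its log2 change lay below 0 in 6 of the 9.

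Summed markers of 23 cell types were compared with two-sided exact permutation tests, which cannot go below p = 0.1 with 3 against 3. For 6 lists the groups did not overlap, with an exact permutation p = 0.1 each (0.383 after Benjamini-Hochberg adjustment over the 23): the venous, lymphatic, megakaryocyte or platelet and proliferating sums were higher, and the fibroblast and pericyte sums lower. The venous list of 10 genes includes Eln, whose values are given above, and the sum was not taken without it. Of the 10, 3 were higher and 1 was lower without overlap. The venous class itself gave a mean of 1.95% of UMIs with PBS and 1.46% with bleomycin, with overlap. The fibroblast sum was 6030, 6810 and 8010 CPM with PBS and 3450, 5070 and 4970 CPM with bleomycin. Of its 18 genes 9 were lower and 3 were higher without overlap. The list includes Itga8 and Fgfr4, whose falls are given above. In the pericyte list 1 of 11 genes was lower without overlap, and in the lymphatic list 1 of 8 was higher. The pericyte class gave a mean of 1.1% of UMIs with PBS and 1.16% with bleomycin, with overlap. For interstitial macrophages or monocytes the sums overlapped (1220 to 1520 CPM against 1380 to 2080 CPM), although 11 of the 17 genes were higher without overlap. Over all genes tested, 11.2% were higher and 9.52% lower without overlap. The platelet sum was 1.68 to 2.07 CPM with PBS and 11.3, 2.77 and 2.37 CPM with bleomycin, with Gp1ba, a defining platelet gene, at 0. The part of these cell types in the gene changes was not tested.

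Whether the change differed from that under NVP-BHG712 was asked for all genes, as the bleomycin effect in vehicle mice minus that in NVP-BHG712 mice. The difference was above 0 for 42 genes (0.291%) and below 0 for 5 (0.0346%). Between Bleo_NVP and PBS_NVP themselves edgeR called 0 genes higher and 0 lower, with 394 at an unadjusted p under 0.05 (no other tool was run on that contrast). With replicate number as a block the difference was called for 374 genes in place of 47. Apoe was at 7.89, 5.71 and 8.39 CPM in PBS_NVP and at 5.54, 4.98 and 5.42 CPM in Bleo_NVP, and Scn3a at 154, 192 and 199 CPM and at 209, 175 and 222 CPM. For both genes the Bleo_NVP libraries were near the PBS groups, and the difference in effect kept its call in each of 22 other settings (highest adjusted p = 0.0435 for Apoe and 0.0458 for Scn3a). The Bleo_NVP libraries carry run number 4, which no other group has.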

How the data were processed

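Per the labels and the study's methods, the authors sorted nuclei from frozen lung and made 3′ libraries (10x Genomics) and counted them with Cell Ranger on mm10. The file headers name Cell Ranger 7.2.0, while the submitters' processing notes list 7.0 and Seurat 4.4.1. The deposited values are raw UMI counts for 31053 genes, with no ambient RNA correction. The study itself corrected with DecontX, which was not run here.

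Counts of kept barcodes were summed per library. With edgeR 4.0.16 (R 4.3.3), all 12 libraries were fitted with a mean for each of 4 groups (filterByExpr, TMM, robust quasi-likelihood, two-sided) and genes with an adjusted p under 0.05 were called. Each library is 1 mouse. Nuclei were clustered with scanpy 1.11.5 (2000 variable genes, 30 components corrected for library, 20 neighbours, Leiden resolution 1), named from marker lists, and summed per library and class where at least 20 nuclei were present. Doublets (0.8% per 1000 nuclei) were left out of classes and kept in whole-lung sums. Named genes were the 12 largest rises and 10 largest falls among called genes with no overlap between groups, a mean of at least 10 CPM and no predicted or mt- symbol, 2 rises and 2 falls per class by the same rule, 4 of each sign for the difference in effect, up to 4 called members per list (2 where none was called) and Ephb4, Efnb2, Col1a1, Col3a1, Eln, Spp1 and Cdkn1a. Trem2, Cd63, Ckap2, Krt8, Acta2, Dbp, Nr1d2, Gm26917 and class values of genes named elsewhere were added after their values were seen. Alternatives were DESeq2 1.42.0, limma 3.58.1 with voom quality weights, other filters, scalings and clusterings, and leaving out each library. Intervals cover counting error only. The calling script was tested on simulated data. Gene positions are from GENCODE M21. The gene lists, marker lists and members were chosen with earlier results of these data known. Some named genes are not reported here. A cluster led by Hhip, Aspn and Lgr5 was left unnamed by a rule set after the clusters were seen. It held 1.17%, 0.807% and 1.57% of kept barcodes with PBS and 1.36%, 0.735% and 0.633% with bleomycin.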

Additional observations from a re-analysis of the deposited data

Results flagged for a closer look

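For 47 genes, of which the 8 with the largest differences by the naming rule are given, the bleomycin effect in vehicle mice differed from that in NVP-BHG712 mice by edgeR's test of the difference in log2 effect (vehicle minus NVP-BHG712, 3 mice in each of 4 groups). The bleomycin effect in NVP-BHG712 mice passed the test for none of the 14448 genes tested, and so for none of the 8 (adjusted p = 0.972 for each).

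The difference was 6.22 ± 1.08 (SE, adjusted p = 0.0409) for Spp1, which was at 8.9, 4.57 and 4.7 CPM in PBS_NVP and at 2.92, 2.93 and 4.86 CPM in Bleo_NVP. For Apoe it was 3.43 ± 0.40 (adjusted p = 0.00221) and for Lcn2 3.22 ± 0.54 (0.0336). Fth1, the ferritin heavy chain gene, rose in vehicle mice from 17, 12.1 and 8.26 CPM to 77.8, 62.3 and 45 CPM and was at 17.7, 11.9 and 12.4 CPM in PBS_NVP and at 10.5, 11.1 and 9.35 CPM in Bleo_NVP, a difference in effect of 2.72 ± 0.39 (adjusted p = 0.0136).

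Below 0 the difference was -2.87 ± 0.41 (adjusted p = 0.0136) for Nr1d1, which was at 39.2, 42.2 and 46 CPM in PBS_NVP and at 41.7, 29.3 and 35.9 CPM in Bleo_NVP. It was -2.56 ± 0.33 (0.00533) for Scn3a, -1.84 ± 0.34 (0.0483) for the bestrophin channel gene Best3 and -1.40 ± 0.23 (0.0326) for Arhgap28.

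Of 22 other settings the call was lost in 12 for Spp1 (highest adjusted p = 0.171), 12 for Lcn2 (0.14), 4 for Fth1 (0.065), 2 for Nr1d1 (0.0556), 13 for Best3 (0.182) and 10 for Arhgap28 (0.135), and in 0 for Apoe and Scn3a. Bleo_NVP and Bleo_vehicle libraries carry different run or batch numbers, so drug and batch cannot be told apart.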

How the results depend on the processing

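The number of whole-lung calls, 377, was 26 from the 6 vehicle libraries alone (all 26 among the 377), 1006 by DESeq2 (367 shared), 1808 by voom with quality weights (374 shared), 166 with nuclei of 500 UMIs or more and mitochondrial genes at 1% or less (155 shared), 56 with nuclei matched for class composition (51 shared), and 38 to 1372 leaving out 1 library (1372 without Bleo_vehicle replicate 3, 367 shared). The matched nuclei were 1206 from each of the 6 vehicle libraries only, so the 56 stands beside the 26 and not the 377. Other scaling, filter, doublet and thinning settings gave 307 to 425. For the difference in effect (47), DESeq2 gave 360, voom 714, the stricter nuclei 19, mitochondrial genes left out 5 and leaving out 1 library 13 to 220. List members called (72) numbered 15 in the 6 libraries alone and 24 in the same 6 with matched composition. They numbered 126 by DESeq2, 151 by voom, 35 in the stricter nuclei and 20 to 118 leaving out 1 library. Calls summed over classes (1957) were 919 from the 6 libraries alone, 3394 with doublets kept and 814 to 6410 leaving out 1 vehicle library. Marker lists without overlap (6) numbered 6 to 11 leaving out 1 library. The cause of these shifts was not tested.

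Same-numbered PBS_vehicle and Bleo_vehicle libraries correlated at -0.0059, 0.0917 and -0.0028 after group means were removed, so the numbers do not pair the mice of this comparison. Same-numbered PBS_vehicle and PBS_NVP libraries correlated at 0.748, 0.392 and 0.504, each more than with any other number, while Bleo_vehicle and Bleo_NVP did at 0.0133, 0.143 and -0.0798. A replicate block gave 998 whole-lung calls (374 shared with the 377), 374 for the difference in effect, 122 list members and 3460 class calls.

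The sign turned only for genes or settings below. For Ephb4 the log2 change was 0.37 by voom, 0.051 with the block, 0.051 with all barcodes, 0.0007 without doublets, 0.44 with matched composition and -0.22 to 0.28 leaving out 1 library. Col5a2 was at -0.13 (without Bleo_vehicle replicate 1) to 0.54, Atp6v0d2 at -0.12 with matched composition, Clock at -0.032 by voom and Rora at -0.0026 with the block and -0.16 to 0.37 leaving out 1 library. Dusp1 was at 0.020 by voom and -0.53 to 0.19 leaving out 1 library. Hbb-bs was at -0.44 and Hba-a1 at -0.58 in the stricter nuclei, and at -0.60 to 4.81 and -0.38 to 6.02 leaving out 1 library, the highest without PBS_vehicle replicate 1. The whole-lung values of Greb1l (-0.48 to 0.079 leaving out 1 library) and Neurl3 (0.067 after thinning) also turned. None of these genes was called over the whole lung. Depth limits the genes under about 1 CPM in PBS libraries, which rest on few UMIs.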
